A study of Mus musculus with 2 samples.

Results

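The genes described here are 9 genes of the B cell lineage, Cd79a, Cd79b, Ms4a1, Pax5, Ebf1, Cd22, Blnk, Jchain and Mzb1, in the mouse thymus. They were taken as a list of symbols, matched to gene IDs through the GENCODE M21 annotation, and all 9 were found among the 43346 genes of the gene tables, with 54 annotated transcripts in the transcript tables. The study sequenced polyadenylated RNA from whole thymus of C57BL/6J mice, an inbred strain, at 8 weeks of age, in 1 group of 2 libraries named biological replicates 1 and 2. Each library came from tissue pooled over male and female littermates, with no treatment or altered allele given in the labels, and no other tissue, age or strain was measured. The labels give both libraries the same donor entry, so the spread between them may be technical in part, and there is no contrast between conditions to test.

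The B cell receptor is a membrane immunoglobulin that signals through the Cd79a and Cd79b chains; Blnk is an adaptor that couples the activated receptor to phospholipase C. Ebf1 and Pax5 are the transcription factors that establish and hold B cell identity, and Pax5 is switched off when a B cell becomes an antibody-secreting plasma cell. Jchain links the units of polymeric IgM and IgA, and Mzb1 is a chaperone of the endoplasmic reticulum that helps antibody secretion. The thymus makes T cells, and holds a small population of B cells, known mainly from the medulla, and some plasma cells.

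Promoter sequence shows which known control letters lie before these genes. RefSeq promoters (GRCm38.p6, 250 bases before to 50 after a start site) were found for 6 of the 9 genes, with 7 entries because Ebf1 had 2. Those of Cd79a, Cd22, Jchain and Pax5 are shown. Cd79a and Jchain had the highest levels of the 4, and Jchain and Pax5 differed most between the libraries. Cd22 held the only exact match to the Ebf core searched. Only bases outside annotated exons are given, 5′ to 3′ on the gene's strand, with E-boxes (CANNTG) and the Ebf core (CCCNNGGG) in capitals.
Cd79a, chr7:24897247-24897380, + strand: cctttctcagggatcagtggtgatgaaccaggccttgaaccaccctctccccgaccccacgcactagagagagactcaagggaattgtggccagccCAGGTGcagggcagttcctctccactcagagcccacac
Cd22, chr7:30879029-30879176, - strand: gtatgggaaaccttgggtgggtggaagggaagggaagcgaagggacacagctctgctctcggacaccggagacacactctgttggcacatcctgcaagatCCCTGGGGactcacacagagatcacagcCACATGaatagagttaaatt
Jchain, chr5:88527898-88528147, - strand: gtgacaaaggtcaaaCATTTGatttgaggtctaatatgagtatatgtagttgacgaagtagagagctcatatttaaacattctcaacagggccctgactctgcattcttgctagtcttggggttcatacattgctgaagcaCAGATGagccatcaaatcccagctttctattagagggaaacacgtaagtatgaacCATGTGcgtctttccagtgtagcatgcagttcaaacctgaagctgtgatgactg
Pax5, chr4:44710695-44710944, - strand: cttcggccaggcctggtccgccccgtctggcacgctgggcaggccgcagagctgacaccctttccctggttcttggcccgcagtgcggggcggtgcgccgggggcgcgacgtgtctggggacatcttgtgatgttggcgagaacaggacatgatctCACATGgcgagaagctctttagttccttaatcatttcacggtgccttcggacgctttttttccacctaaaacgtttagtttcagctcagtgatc
The Ebf core in Cd22, CCCTGGGG, lay at positions -48 to -41 from the start. That core was in 1 of the 7 promoters of these genes and in 11.8% of all 32851 RefSeq mouse promoters. An E-box was in 6 of the 7, against 66.2% of all promoters. The octamer ATGCAAAT, the site of Oct factors, was in 1 of the 7, that of Blnk, where it read ATTTGCAT on the other strand, at positions -130 to -123 from the start, against 1.60% of all. The ETS core GGAA was in all 7 and in 93.4% of all promoters. Both strands were searched, and a match is only a match of letters. Sites that depart from the exact letters were not counted. The Cd79a sequence above holds CTCAAGGG, which differs from the Ebf core in 1 letter.

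Transcript models of 3 of the genes differ by a short piece inside the coding sequence, shown here because the shares of these transcripts are given below. Each is printed 5′ to 3′ on the gene's strand (GRCm38), with 20 bases of neighbouring exon on either side in lower case and the alternative piece in capitals.
Cd22, 19 bases, chr7:30873116-30873134, - strand: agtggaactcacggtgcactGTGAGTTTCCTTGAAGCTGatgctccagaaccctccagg
Blnk, 9 bases, chr19:40937719-40937727, - strand: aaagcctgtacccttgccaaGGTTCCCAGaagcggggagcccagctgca
Ebf1, 3 bases, chr11:44907904-44907906, + strand: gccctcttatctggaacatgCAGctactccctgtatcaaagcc
The Cd22 piece is in 1 of 16 transcripts of the gene in GENCODE M21, Cd22-214, and holds a stop codon, TGA, in frame at its bases 12 to 14. The reading frame of Cd22-214 thus ends after 353 codons, against 868 in Cd22-203, and GENCODE classes Cd22-214 as a target of nonsense-mediated decay, the pathway that removes messages with an early stop. The Blnk piece adds 3 codons to Blnk-201 (457 against 454 in Blnk-202). The Ebf1 piece adds 1 codon to Ebf1-202 (592 against 591 in Ebf1-201).

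The 2 gene tables held 49.3 and 63.1 M estimated fragments, and 14360 genes (33.1%) reached a mean of 1 TPM (the length-scaled transcript level), with a median of 13.6 TPM. All 7 T cell receptor and CD3 chain genes checked were above 10 TPM in the mean, with a median of 399 TPM. Over the 14795 genes with at least 100 summed counts, the median chi-square between the libraries was 8.90, against 0.455 for sampling noise. It used counts scaled by their totals, not the scaling of the ratios below. Neither table is thus a copy of the other, but this does not show that they came from separate animals.

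All 9 B lineage genes were above 1 TPM in both libraries, and 4 of them, Jchain, Cd79a, Cd79b and Mzb1, were at 10 TPM or more in the mean. Their median was 8 TPM (9.2 in replicate 1 and 6.8 in replicate 2), below the median of all detected genes. Together they made up 0.0140% and 0.0151% of all TPM, 140 and 151 TPM summed, where the 7 T cell receptor and CD3 chain genes summed to 7938 and 8370 TPM. In whole tissue, fewer cells of a type and less RNA per cell cannot be told apart. Nor can RNA of these genes from B lineage cells be told apart from their RNA in other cells. By mean level the order was Jchain, Cd79a, Cd79b, Mzb1, Blnk, Cd22, Ebf1, Pax5 and Ms4a1, and each library gave that order except that Cd79a was above Jchain in replicate 1. The ranges of the libraries overlapped between the neighbours Jchain and Cd79a, Cd79a and Cd79b, Blnk and Cd22, and Ebf1 and Pax5, so these neighbours are not ordered beyond their spread. They did not overlap between Cd79b and Mzb1, Mzb1 and Blnk, Cd22 and Ebf1, or Pax5 and Ms4a1.

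**Figure D1:**
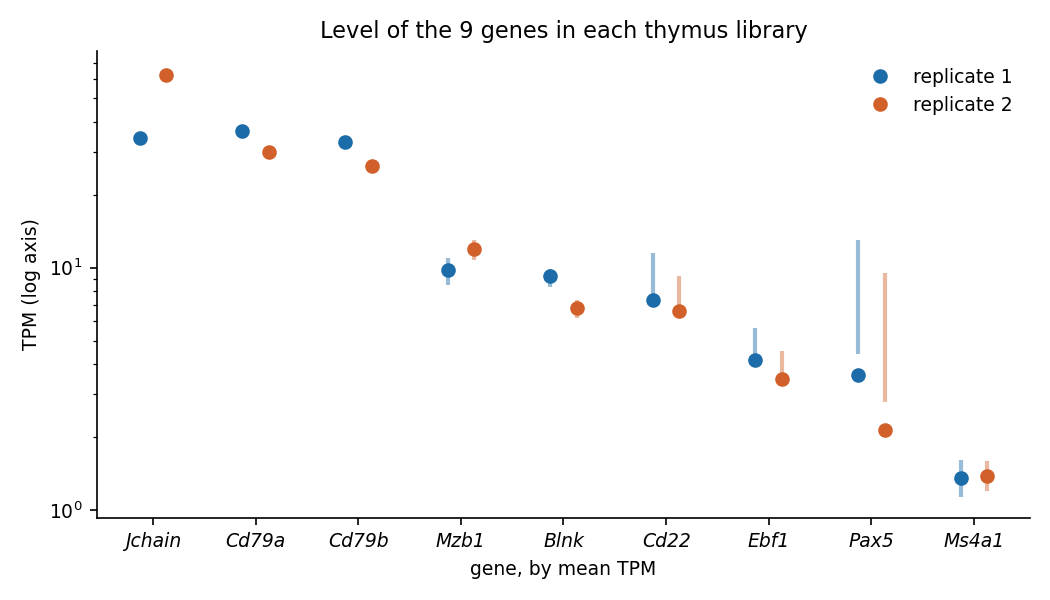
Level of each gene in TPM (log axis) in replicate 1 (blue) and replicate 2 (orange), with bars for the bounds that the authors deposited for each TPM value. The genes run from Jchain, at 34.2 and 62.7 TPM, to Ms4a1, at 1.35 and 1.38 TPM, and the points of Pax5 and Cd22 lie below their own bars.

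The signalling chains of the B cell receptor were among the most abundant of the group. Cd79a (ENSMUSG00000003379.7, chr7:24897381-24902197, + strand) stood at 36.8 TPM in replicate 1 and 30.15 TPM in replicate 2, a mean of 33.5 ± 4.72 (SD, n = 2), higher than 69.6% of detected genes. Cd79b (ENSMUSG00000040592.7, chr11:106311341-106314762, - strand) stood at 33.2 and 26.2 TPM, a mean of 29.7 ± 4.95 (SD, n = 2). Both chains were higher in replicate 1, and they kept nearly the same ratio to each other: Cd79a was 1.11 times Cd79b in replicate 1 and 1.15 times in replicate 2. The partner chains form a heterodimer in the receptor, and their messages lay within that margin. Cd3e, a signalling chain of the T cell receptor, was 9.63 times Cd79a in replicate 1 and 8.44 times in replicate 2, in TPM.

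Blnk (ENSMUSG00000061132.9, chr19:40928927-40994535, - strand), the adaptor downstream of these chains, stood at 9.20 and 6.80 TPM, a mean of 8.00 ± 1.70 (SD, n = 2). Like Cd79a and Cd79b it was higher in replicate 1. Of its relatives, Lcp2, the adaptor that T cells use in the same place, was at 122 and 114 TPM. Sh3bp2, an adaptor of many blood cells, was at 28.5 and 26.8 TPM, and Sh2d6 at 3.79 and 5.17 TPM. Clnk, the fourth relative, was under 1 TPM. Blnk thus stood below Lcp2 and Sh3bp2 and above the other relatives in both libraries.

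The surface proteins Cd22 and Ms4a1 were much lower than the receptor chains. Cd22 (ENSMUSG00000030577.9, chr7:30865402-30880342, - strand), a sialic acid binding inhibitor of the B cell receptor, stood at 7.37 and 6.65 TPM, a mean of 7.01 ± 0.509 (SD, n = 2). Ms4a1 (ENSMUSG00000024673.9, chr19:11249675-11266241, - strand), which encodes the B cell antigen CD20, stood at 1.35 and 1.38 TPM, with an SD of 0.0212 (n = 2), higher than 4.99% of detected genes. Cd79a was 27.3 and 21.8 times Ms4a1 in the 2 libraries. Ms4a1 had the least spread of the 9 genes and was the lowest in TPM in both libraries. Its 127 and 181 expected counts still place it well above the floor of 3 counts.

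Relatives of Cd22 and Ms4a1 on other blood cells were measured beside them. Of 15 other Ms4a genes, 9 reached 1 TPM: Ms4a4b, of T cells, led with 38.3 and 49.5 TPM, Ms4a6b followed with 35.0 and 37.0 TPM, and Ms4a7, Ms4a6d, Ms4a6c, Ms4a4d, Ms4a4c, Ms4a10 and Ms4a8a lay between 1.01 and 6.61 TPM in the mean. The lowest of them, Ms4a8a, at 0.59 and 1.43 TPM, was below Ms4a1 in replicate 1. All 7 other Siglec genes checked reached 1 TPM. Siglech, of plasmacytoid dendritic cells, was at 17.1 and 13.7 TPM, Siglecg, which B cells share, at 14.9 and 10.9 TPM, and Siglec1, of macrophages, at 12.1 and 8.20 TPM. Cd22 was below these 3 relatives in both libraries and above Cd33, Siglece, Mag and Siglecf, which lay between 1.47 and 5.01 TPM in the mean.

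The transcription factors were low in deposited TPM. Ebf1 (ENSMUSG00000057098.10, chr11:44617317-45008091, + strand) stood at 4.17 and 3.47 TPM, a mean of 3.82 ± 0.495 (SD, n = 2). Pax5 (ENSMUSG00000014030.11, chr4:44524757-44710487, - strand) stood at 3.62 and 2.13 TPM, a mean of 2.88 ± 1.05 (SD, n = 2), resting on 173 and 142 expected counts. Both were higher in replicate 1. Among their paralogs, Pax1 and Pax9, which act in the thymic epithelium, were the only other Pax genes at 1 TPM, with 75.9 and 72.8 TPM for Pax1 and 11.5 and 11.9 TPM for Pax9. Both stood above Pax5 in both libraries. Of 3 other Ebf genes only Ebf3 reached 1 TPM, at 1.19 and 1.12 TPM, below Ebf1 in both libraries.

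The level of Pax5 depended on how the authors estimated it more than that of the other 8 genes. Its deposited TPM lay below the lower of its own deposited bounds in both libraries: 3.62 TPM beside bounds of 4.41 to 13.1, and 2.13 TPM beside bounds of 2.79 to 9.47. Cd22 did so too, at 7.37 TPM beside 7.78 to 11.5 and at 6.65 TPM beside 6.88 to 9.26. Among all detected genes this held for 1.18% in replicate 1 and 0.731% in replicate 2. The posterior mean TPM, a second estimate in the same tables, was 7.78 and 5.33 for Pax5, and 9.54 and 8.05 for Cd22. Pax5 has 20 transcripts in the tables, of which 3 had any expected count, and Pax5-219, a transcript of 223 bases with 0 expected counts, took 32.2% and 37.0% of the posterior mean TPM of the gene. By that estimate Pax5 would stand above Ebf1 (4.72 and 3.90), so the order of these factors is not settled by these tables. Both estimates of Pax5 were higher in replicate 1.

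Of the genes of antibody secretion, Jchain was the most abundant of the 9 by mean TPM and Mzb1 the fourth. Jchain (ENSMUSG00000067149.5, chr5:88519809-88527891, - strand) stood at 34.2 TPM in replicate 1 and 62.7 TPM in replicate 2, a mean of 48.5 ± 20.1 (SD, n = 2), higher than 77.0% of detected genes. It was the one gene of the 9 whose rank among them differed by library together with Cd79a: Jchain was 0.929 times Cd79a in replicate 1 and 2.08 times in replicate 2. Mzb1 (ENSMUSG00000024353.4, chr18:35647267-35649367, - strand) stood at 9.80 and 11.95 TPM, a mean of 10.9 ± 1.52 (SD, n = 2). Both were higher in replicate 2, Jchain more so, and Jchain was 3.49 and 5.24 times Mzb1. Ighm, the constant region of IgM, was 23.8 and 16.3 times Jchain, and Igha, that of IgA, 4.94 and 3.67 times Jchain.

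The libraries were compared by the ratio of expected counts, replicate 2 over replicate 1, scaled with the TMM method, with a 95% exact binomial interval that covers counting error only. With 1 library on each side there is no replicate error for a ratio, and no p-value is given. Of the 9 genes, 1 was at least 1.5-fold higher in replicate 2, Jchain, and 1 was at least 1.5-fold lower, Pax5. Of all 14360 detected genes, 6.48% were that much higher and 4.23% that much lower, a split in which 60.5% of the genes past the fold were higher; scaling by total counts made that 73.7%. With 9 genes, 1 in each direction is no more than a single gene, and is not a result about the group. The median log2 ratio of the 9 was -0.18, beside -0.01 for all detected genes.

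**Figure D2:**
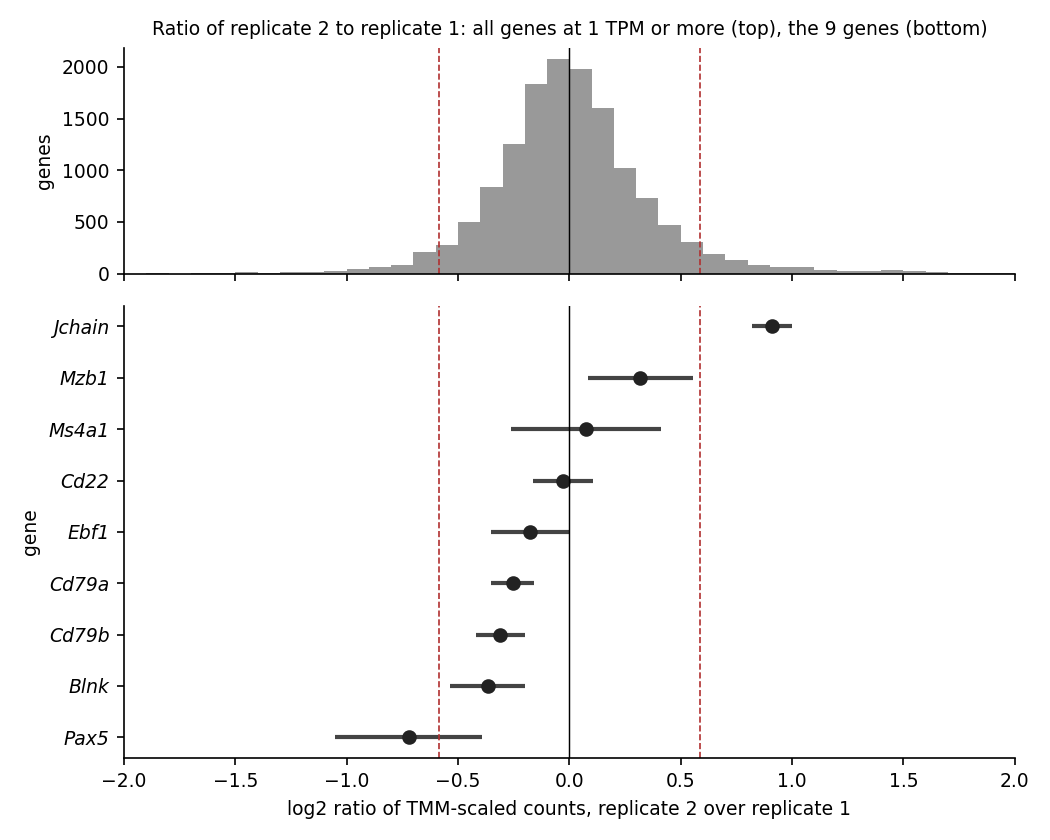
Top, the number of detected genes by log2 ratio of replicate 2 to replicate 1 in TMM-scaled counts, limited to ratios from -2 to 2. Bottom, the ratio of each of the 9 genes with its 95% counting interval, with dashed lines at 1.5-fold; Jchain lies past the upper line with its whole interval, and the interval of Pax5 crosses the lower line.

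Jchain had 1411 and 3583 expected counts, a ratio of 1.88 with an interval of 1.76 to 2.00, or 0.91 on the log2 scale. The whole interval lay past 1.5-fold. Mzb1 was 1.25 times higher in replicate 2, with an interval of 1.06 to 1.47, inside 1.5-fold. These were the only members whose counting interval lay wholly above equal levels.

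Pax5 was 1.65-fold lower in replicate 2, with an interval of 1.31 to 2.07, so counting error alone leaves its place on either side of 1.5-fold undecided. On TPM with a pseudocount of 1, its log2 ratio was -0.56, short of 1.5-fold. Blnk was 0.776 times its level in replicate 1 (interval 0.690 to 0.872), Cd79b 0.807 times (0.748 to 0.870) and Cd79a 0.838 times (0.783 to 0.897). Ebf1 was at 0.884 times (0.783 to 0.999). These 5 genes had intervals wholly below equal levels with TMM scaling, but that of Ebf1 held equal levels when counts were scaled by their totals, which left 4. The share of all detected genes with intervals off equal levels was not computed. With counts scaled by their totals, differences beyond counting error were widespread, with a median chi-square of 8.90 over 14795 genes. The number of such intervals, above or below, is thus not a result about these genes. The intervals of Cd22 (0.980, from 0.892 to 1.08) and Ms4a1 (1.05, from 0.835 to 1.33) held equal levels. As the plot of ratios shows, 7 of the 9 differences were under 1.5-fold.

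Markers of other cells differed between the same libraries. Of 10 plasmacytoid dendritic cell markers, 1 was past 1.5-fold: Cox6a2, at 25.3 and 342 TPM, was 13.8-fold higher in replicate 2. The list summed to 2217 and 2401 TPM, or 2192 and 2059 TPM without Cox6a2. Its highest genes were Ly6d (1094 and 876 TPM) and Ccr9 (426 and 488), where Siglech was at 17.1 and 13.7 TPM. Which cells of the whole tissue gave these values was not tested, so the sum is not a measure of plasmacytoid dendritic cells alone. Of 10 macrophage markers, Lyz2 (263 and 398 TPM) was past 1.5-fold higher and Marco past 1.5-fold lower, and the list summed to 1047 and 1419 TPM. Of 10 adipocyte markers, Ucp1, of brown fat, was past 1.5-fold lower (346 and 124 TPM) and Lep past 1.5-fold higher. The list summed to 1510 and 1117 TPM. Of 10 mesenchyme markers, Dcn, Lum and Tcf21 were past 1.5-fold higher and Col1a1 past 1.5-fold lower. Their sums were 118 and 149 TPM, or 79.0 and 77.9 TPM without Dcn. None of these markers was at 0 in both libraries. The macrophage sum was higher in replicate 2, also without Lyz2, which differed most in TPM (784 and 1021 TPM). The adipocyte sum was higher in replicate 1, also without Ucp1, which differed most in TPM (1164 and 993 TPM). Adipoq, Fabp4, Pparg, Retn and Lep went the other way, and the median log2 ratio of the adipocyte list was -0.02. The other sums took their direction from Cox6a2 and Dcn. Their part in the ratios of the B lineage genes was not tested.

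The transcript tables split each gene's level over its annotated transcripts, and apart from Cd22 the leading transcript of each gene was the same in both libraries. Cd79a-201 and Mzb1-201 were the only transcripts of their genes. Jchain-201 took 99.8% ± 0.203 (SD, n = 2) of Jchain. Cd79b was divided between Cd79b-201, with 63.7% and 63.3%, and Cd79b-202, with 36.3% and 36.7%; they differ in their first exon and in the annotated reading frame, of 288 and 228 codons. Blnk-201, with the 9-base piece printed above, took 56.6% and 59.6%, and Blnk-202, without it, 41.8% and 37.8%. Ebf1-202, with the extra codon, took 73.4% and 74.1%, and Ebf1-201 12.9% and 17.9%. Smaller shares of Ebf1 were less even: Ebf1-203 took 7.67% and 0%, and Ebf1-204 0% and 7.20%. Blnk-201 and Blnk-202 also differ at the 5′ end, and the Ebf1 pair at the 3′ end, so these shares are not a count of reads over the alternative pieces.

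Of Ms4a1, the coding Ms4a1-201 took 63.0% in each library. The remaining 37.0% fell to transcripts with a retained intron, which encode no protein in the annotation, nearly all of it to Ms4a1-202 with 33.3% in each library. This rested on 37.0 and 52.6 expected counts for Ms4a1-202. The level of coding Ms4a1 message was thus 0.850 and 0.870 TPM, under 1 TPM in both libraries.

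Pax5-201, which encodes 391 residues, took 90.9% and 92.5% of Pax5, and Pax5-208, which begins at another first exon 6481 bases downstream, 9.12% and 7.01%. By posterior mean TPM, Pax5-201 took only 33.9% and 26.3%. Its length in the deposited tables was 1616 bases, beside 8004 in GENCODE M21, and the deposited TPM was computed with the shorter length. The expected counts of Pax5-201 thus cover the shorter model only, and the effect of this on the level of Pax5 was not tested. Jchain and Mzb1 had 1 transcript each whose length differed between the annotations, and all other transcripts of the 9 genes had equal lengths.

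Cd22 was the only one of the 9 genes whose leading transcript differed between the libraries. Its leading transcript was the coding Cd22-203 in replicate 1 and Cd22-214, with the early stop, in replicate 2. Cd22-214 took 22.8% and 51.3% of the gene, at 1.68 TPM (deposited bounds 0.554 to 2.19) and 3.41 TPM (2.36 to 3.99), from 199 and 561 expected counts. Those bounds did not overlap. By posterior mean TPM the shares of Cd22-214 were lower, 13.9% and 39.9%, and again higher in replicate 2. Cd22-203 took 27.5% and 18.6%, and Cd22-201, which starts at the promoter printed above, 22.8% and 11.6%. The deposited bounds of both did overlap between the libraries. They were 1.26 to 2.85 and 0.661 to 1.82 TPM for Cd22-203. For Cd22-201 they were 0.798 to 2.33 and 0.278 to 1.43 TPM. Coding transcripts summed to 4.33 TPM (58.7%) in replicate 1 and 2.62 TPM (39.4%) in replicate 2. The gene total, at 7.37 and 6.65 TPM, moved far less than this division. Cd22-203 and Cd22-214 differ by the 19-base piece and by 5′ ends 235 bases apart, and how reads common to both were divided is not given in the sources used here.

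**Figure D3:**
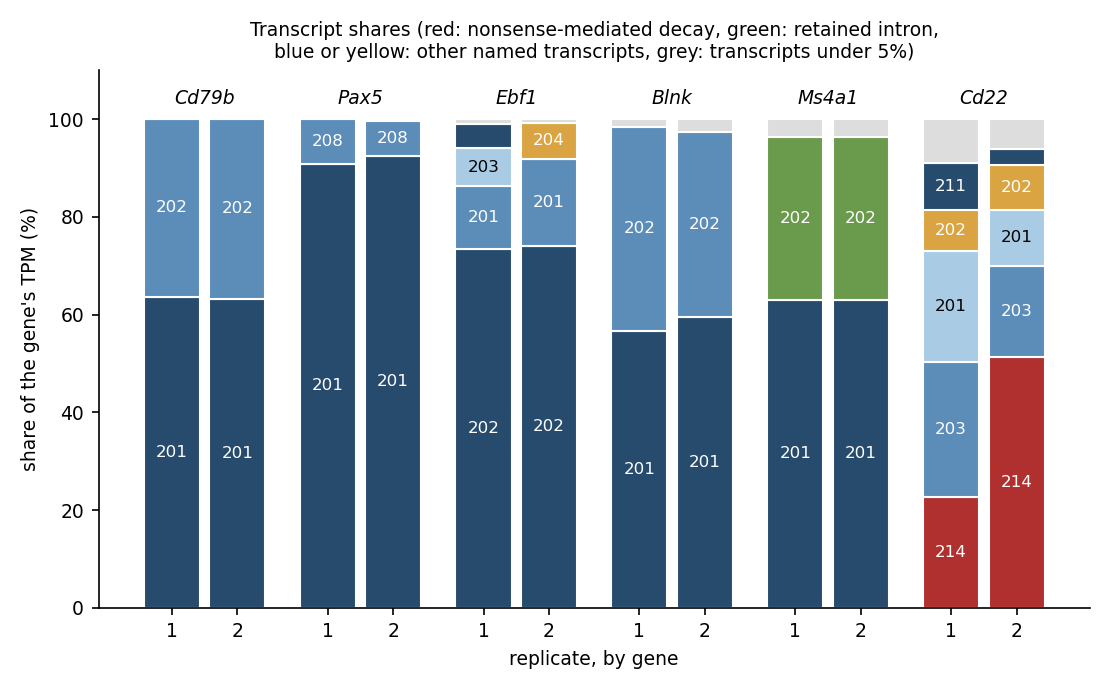
Share of each gene's TPM (%) taken by its transcripts in replicates 1 and 2, for the 6 genes with more than 1 transcript at 5% or more in either library; labels are GENCODE transcript numbers. The bars of Cd79b, Pax5, Blnk and Ms4a1 look alike in both libraries, and Cd22-214 (red) goes from 22.8% to 51.3%.

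Other genes of the lineage, in lists chosen by function, were set beside the 9. In each list, and in those of the other cell types above, a gene was counted as past 1.5-fold only where its mean was at least 1 TPM. Over all detected genes, 6.48% were that much higher in replicate 2 and 4.23% that much lower. In lists this small, a few genes past the fold are not a result about the list. Of 16 B cell surface proteins, 14 reached 1 TPM, with a median of 8.27 TPM. The highest were Cd37, a tetraspanin of many lymphocytes, at 344 and 332 TPM, the cytokine receptors Tnfrsf13b, at 134 and 106 TPM, and Cd40, at 37.2 and 41.0 TPM, and Siglecg, given above. Of those 14, none was 1.5-fold higher in replicate 2 and 2 were lower, Fcmr and Tnfrsf13c. Under 1 TPM, the complement receptor Cr2, at 0.85 and 0.48 TPM, was 2.35-fold lower. The median of the list was close to that of the 9 genes.

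All 12 further B cell transcription factors reached 1 TPM, with a median of 25.2 TPM. Tcf3, which T cells use as well, led with 356 and 269 TPM, followed by the Ikaros relative Ikzf3 (151 and 111), Bcl6 (96.8 and 80.95) and Irf8 (83.8 and 80.7). All 4 stood far above Pax5 and Ebf1, and developing T cells or other thymic cells express several of them. None of the 12 was at least 1.5-fold higher in replicate 2, and 1, Foxo1, was at least 1.5-fold lower. All 15 signalling genes downstream of the receptor reached 1 TPM, with a median of 26.1 TPM and none past 1.5-fold; Inpp5d (256 and 221 TPM), Ptpn6 (178 and 166), Vav1 (110 and 108) and Prkcb (112 and 97.2) led. The 4 leading genes also serve other blood cells.

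Of 10 genes of B cell progenitors, 8 reached 1 TPM. Dntt (308 and 284 TPM), Rag1 (276 and 276) and Rag2 (35.0 and 44.0) also act in thymocytes, and Vpreb1, a surrogate light chain, followed with 8.40 and 13.7 TPM. Vpreb1 was past 1.5-fold higher in replicate 2 and Vpreb3 lower. Of 9 genes of activated and germinal centre B cells, 6 reached 1 TPM, and none of the 6 was past 1.5-fold; the median of all 9 was 3.12 TPM. Gcsam, under 1 TPM, was 1.90-fold higher in replicate 2, on 35 and 90 expected counts. Il21r (114 and 113 TPM), S1pr2 (19.1 and 19.2), Cd86 (8.97 and 12.0) and Fas (9.61 and 10.9) were the highest, and other thymic cells share them.

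Of 14 plasma cell genes, 12 reached 1 TPM, with a median of 5.46 TPM. Xbp1, the factor of the secretory programme, was at 98.9 and 89.5 TPM, and Sec11c (55.4 and 53.4), Txndc5 (51.8 and 42.0) and Edem2 (49.1 and 44.0), which act in the endoplasmic reticulum of many cells, followed. None of these 4 was higher in replicate 2, unlike Jchain. Of the 12, the 2 genes past 1.5-fold were Fkbp11 and Tnfrsf17, the plasma cell receptor BCMA, both higher in replicate 2. Fkbp11, at 1.66 and 2.44 TPM, rested on 30 and 61 expected counts and only just passed the fold. Tnfrsf17, at 1.05 and 2.13 TPM, rested on 22 and 62 expected counts. Other genes of the list were nearly level between the libraries. In scaled counts, replicate 2 over replicate 1, Sdc1 was at 0.947 times, Derl3 at 1.03 times and Prdm1, under 1 TPM, at 1.05 times. Eaf2, under 1 TPM, was 2.15-fold higher, on 11 and 32 expected counts. The median log2 ratio of the list was 0.07.

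Of 12 immunoglobulin constant regions, 10 were matched and all 10 reached 1 TPM, with a median of 49.4 TPM. Igkc (936 and 1633 TPM), Ighm (815 and 1019), Igha (169 and 230) and Ighg2b (71.0 and 82.2) were the highest, and all 4 were higher in replicate 2. Past 1.5-fold, Igkc, Ighg2c and Iglc2 were higher in replicate 2, beside 6.48% of all detected genes. Ighd, the constant region of IgD on resting B cells, was past 1.5-fold lower, at 8.54 and 4.05 TPM, beside 4.23% of all detected genes. The median log2 ratio of the list was 0.39. Jchain was higher in the library where most constant regions were higher, and Pax5 was lower in the library where Ighd was lower. These lists overlap in function with the 9 genes and come from the same libraries, so they describe the same samples and add no independent evidence.

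**Figure D4:**
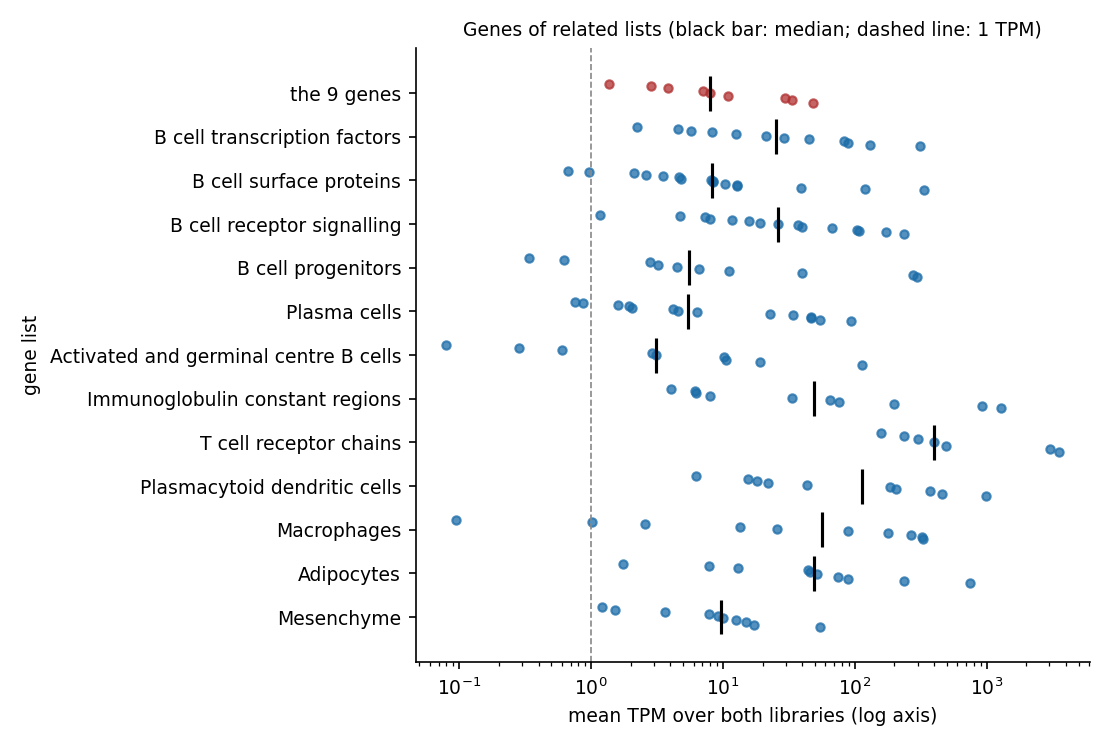
Mean TPM over both libraries (log axis) of the 9 genes (red) and of the genes of related lists (blue), 1 point per gene, with the median of each list as a black bar and 1 TPM as a dashed line. The median of the 9 genes, 8 TPM, lies near that of the B cell surface proteins, 8.27 TPM, and below those of the immunoglobulin constant regions, 49.4 TPM, and the T cell receptor chains, 399 TPM.

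Genes that overlap the 9 in the annotation were read at near 0. Antisense or other short genes over Ms4a1, Pax5, Ebf1 and Cd22 had at most 0.1 TPM in either library. Mzb1 is overlapped on its own strand by SPATA24 in GENCODE M21, which was matched to no row here, so reads shared with that gene cannot be told apart from those of Mzb1. The libraries are labelled stranded, and whether counting used the strand is not given in the sources used here.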

How the data were processed

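Polyadenylated RNA of 2 adult thymus libraries was analysed. The authors deposited gene and transcript tables that hold, per the file headers, expected counts (estimated fragments, not normalised), TPM over all features with spike-ins included, divided by length, posterior mean TPM, and TPM bounds of no stated level, used as descriptions. The accompanying deposited text files name mm10 and GENCODE M4. The aligner and the quantifier, with versions, were not given in the sources used here. Contig and junction lists on mm9 were not used here.

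Symbols came from GENCODE M21 (GRCm38), which matched 42462 of 43346 genes. The 9 genes and all lists were chosen with earlier results of these data known. Detection was a mean of at least 1 TPM. Ratios used expected counts scaled by edgeR's TMM over genes with at least 10 summed counts, with 95% exact binomial intervals, and were checked on simulated data. CPM, used as an alternative, is counts over the gene total and not divided by length. The text names all 9 genes, the 4 highest genes of each pathway list, family genes at 1 TPM or more, and transcripts with at least 10% of a gene; the remaining names were chosen after their values were seen. Alternatives were other scalings, pseudocounts, folds, filters and units. Promoters came from RefSeq. Depth was 48.6 and 62.1 M fragments over genes. A floor of 3 counts per library equals 0.0618 and 0.0483 CPM. Scaling was done in R 4.3.3 with DESeq2 1.42.0 and edgeR 4.0.16, the rest in Python 3.11.15 with scipy 1.17.1, pandas 2.3.3, numpy 2.4.6 and, for plots, matplotlib 3.10.9.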

Additional observations from a re-analysis of the deposited data

How the results depend on the processing

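No paired analysis was possible because there is 1 group. That all 9 genes reached 1 TPM held in each library alone, as CPM, by posterior mean TPM and at 0.5 TPM. The median of the 9 was 10.6 as CPM, which is not divided by length, and 10.03 TPM when rescaled to protein-coding genes, beside 8 TPM. Cd79a to Cd79b was 1.24 as CPM, beside 1.13. With DESeq2 size factors or total counts, Jchain and Pax5 stayed past 1.5-fold (log2 ratios of 0.90 to 0.99 and of -0.73 to -0.64). With a TPM pseudocount of 1, 0 genes were past 1.5-fold lower, and at a fold of 2 there were 0 higher and 0 lower. The share of all genes past 1.5-fold was 10.7%, 23.0% over every gene with counts in both libraries, and 5.34% over genes at 10 TPM or more. The leading share of Pax5 fell from 91.7% to 30.1% by posterior mean TPM. Sums of cell type markers without 1 gene, and counting intervals under other scalings, were added after seeing the data. Depth limits Ms4a1 and Pax5 most.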
